A study of Homo sapiens with 24 samples.

Results

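The genes described here are 10 components of the NOTCH pathway: the receptors *NOTCH1*, *NOTCH2* and *NOTCH3*, the ligand *JAG1*, the DNA-binding factor *RBPJ*, the coactivators *MAML1* and *MAML2*, and the target genes *HES1*, *HES4* and *HEY1*. They were chosen by name and role, with earlier results of these data known, and are 10 of the 25702 gene identifiers counted. All 10 passed a filter on low counts that left 13356 genes to test. The mRNA was sequenced from IMR90 cells, a line of human diploid lung fibroblasts, in 24 libraries. Every library carried ER:HRAS G12V, an oncogenic RAS fused to an oestrogen receptor domain and switched on by 4-hydroxytamoxifen (4OHT), at passage 23 to 28. Growing cells had an empty MSCV vector and no 4OHT, shHMGA1 cells had a miR30 hairpin against *HMGA1* in place of the empty vector and no 4OHT, RIS (RAS-induced senescence) cells had the empty vector and 6 days of 4OHT, and RIS+shHMGA1 cells had the hairpin and 6 days of 4OHT, with 6 replicates in each group. All the hairpin libraries carried the same hairpin, and there was no non-targeting hairpin among the groups, only the empty vector.

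NOTCH receptors are single-pass membrane proteins that are activated by ligands of the Jagged and Delta families on a neighbouring cell. Ligand binding allows successive cleavages by an ADAM protease and by gamma-secretase, which free the intracellular domain to enter the nucleus. There it joins RBPJ, which binds DNA with or without NOTCH, and recruits a Mastermind-like coactivator (MAML). Genes of the HES and HEY families, which encode basic helix-loop-helix repressors, are the best known targets. In fibroblasts that undergo RIS, the level of NOTCH1 activity is known to change over time, and NOTCH activity is known to restrain the inflammatory secretome. Messenger RNA levels of the pathway's components do not measure the cleaved receptor, so that the counts bear on the supply of components and on target transcripts.

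RBPJ is known to bind DNA at sites with the core TGGGAA. The letters around the start sites of the target genes are shown because this core is where the receptor complex is known to contact such genes. RefSeq promoter windows (GRCh38.p14, 250 bases before to 50 after each annotated start) were read for 9 of the 10 genes. None was read for *HEY1*, whose promoter was therefore not examined. The 9 genes have 13 windows, 5 of them of *RBPJ*. TGGGAA was found, on either strand, in 3 of these 13 windows, 1 each of *HES1*, *HES4* and *RBPJ*, against 24.03% of all 35116 windows. The longer form GTGGGAA, which contains the core and so overlaps every such match, was found in the same 3 windows, against 6.25% of all windows. CACGTG, an E-box, was found in none of the 13 windows, against 7.26% of all windows. Each stretch below holds 30 bases, reads 5′ to 3′ along the strand of the gene, and has the core TGGGAA, or its reverse complement TTCCCA, in capitals.
HES1, plus strand, chr3:194136059-194136088: tactgTGGGAAagaaagttTGGGAAgtttc
HES4, minus strand, chr1:1000156-1000185: ctggggcgagtgTGGGAAagaatgcggagc
RBPJ, plus strand, chr4:26319619-26319648: ggtttaggaaatTTCCCAcggccgtgttgt
RBPJ, plus strand, chr4:26319662-26319691: agtggaaggcggTGGGAAggaggtgtagcg
In *HES1* the pair of cores began 84 and 70 bases before the start and lay on the same strand, and in *HES4* the core began 76 bases before the start. *RBPJ* had 5 annotated starts, and only the window of the start inside chr4:26319496-26319795 held the core, on opposite strands. A match of letters is a description of the sequence and was not tested as a binding site.

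In the human genome build GRCh37, which the submitters named hg19, the GENCODE annotation places *NOTCH1* on chromosome 9 (139388885 to 139440500, minus strand), *NOTCH2* on chromosome 1 (120454176 to 120643366, minus strand) and *NOTCH3* on chromosome 19 (15269849 to 15311806, minus strand). *JAG1* lies on chromosome 20 (10618332 to 10654647, minus strand) and *RBPJ* on chromosome 4 (26165077 to 26436753, plus strand). *MAML1* lies on chromosome 5 (179159823 to 179204284, plus strand) and *MAML2* on chromosome 11 (95709762 to 96076359, minus strand). *HES1* lies on chromosome 3 (193853937 to 193856521, plus strand), *HES4* on chromosome 1 (934342 to 935552, minus strand) and *HEY1* on chromosome 8. *NOTCH2* has a near-identical partial copy in *NOTCH2NLA*, so that its count is uncertain to the extent that reads could not be placed, and annotated processed pseudogenes raise the same limit for *RBPJ*. *NOTCH1*, *NOTCH2*, *JAG1* and *MAML2* each overlap a long non-coding RNA on the opposite strand, and the strand setting of the counting is not given in the sources used here.

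The total count per library was 8698070 to 23103424, with a median of 10604083. *HMGA1*, the target of the hairpin, was at 54.4 to 262 CPM (reads of a gene scaled to a common library size) in the 12 hairpin libraries and at 639 to 861 CPM in the 12 vector libraries. The library labelled growing replicate 4 lay nearest the RIS+shHMGA1 group and the library labelled RIS replicate 2 lay nearest the growing group, by the root mean square distance to the group means over the genes tested. Their distances to their own group were 1.32 and 1.08 on the log2 scale, against 0.239 to 0.507 for the other 22 libraries. Among those 22, growing replicates 3 and 5 lay slightly nearer shHMGA1 (0.311 and 0.405) than their own group (0.387 and 0.422). RIS+shHMGA1 replicate 5 lay slightly nearer RIS (0.423) than its own group (0.431). The summed CPM of 4 interleukin genes of the senescence secretome (*IL1A*, *IL1B*, *IL6*, *CXCL8*) was 73686 in growing replicate 4 against 1879 to 9095 in the other growing libraries, and 2268 in RIS replicate 2 against 24401 to 53528 in the other RIS libraries. Both are vector libraries with *HMGA1* at vector level, so that the hairpin target does not check their 4OHT label. Results that rest on either library are therefore given with all 24 libraries, in their labelled groups, and with the 22 libraries that remain without both, or with the values of these libraries beside them. Of the comparisons of 2 groups, only RIS+shHMGA1 against shHMGA1 holds neither library among its groups. In the edgeR fit its SE and p still depend on both, because the spread was estimated over all 4 groups. The 7 fibroblast markers were all detected and summed to 4407 to 38274 CPM, whereas the 5 epithelial markers summed to at most 1.68 CPM, the 3 endothelial markers to at most 2.01 CPM and the 3 leukocyte markers to at most 1.38 CPM in any library. The fibroblast sum was lower in RIS+shHMGA1 (4407 to 5735 CPM) than in shHMGA1 (13298 to 18865 CPM). It was 21713 to 38274 CPM in the growing libraries other than replicate 4, which was at 5075 CPM. In the RIS libraries other than replicate 2, which was at 25544 CPM, the sum was 5580 to 8761 CPM. The part of these shifts in the results below was not tested. In such bulk RNA, fewer cells that express a gene and less RNA per cell cannot be told apart.

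Levels per kilobase of transcript (CPM divided by the length of the canonical transcript) give the order of the components. Among the receptors in the 5 growing libraries other than replicate 4, *NOTCH2* had the highest median (20.3 CPM per kilobase), followed by *NOTCH3* (10.6) and *NOTCH1* (2.90), and *NOTCH2* was above *NOTCH3*, and *NOTCH3* above *NOTCH1*, within each of these libraries. In RIS+shHMGA1 the medians were 5.76 for *NOTCH2*, 1.13 for *NOTCH3* and 1.45 CPM per kilobase for *NOTCH1*. *NOTCH3* was thus above *NOTCH1* in 6 of 6 shHMGA1 libraries, in 3 of the 5 RIS libraries other than replicate 2, and in 0 of 6 RIS+shHMGA1 libraries. Among the nuclear components, *RBPJ* exceeded *MAML1* and *MAML1* exceeded *MAML2* in each of the 22 libraries, with growing medians of 17.4, 6.91 and 3.15 CPM per kilobase. Among the targets, *HES4* had the highest level in each of the 22 libraries, while *HEY1* and *HES1* differed in order between groups. *HEY1* was below *HES1* in 5 of 5 growing and 6 of 6 shHMGA1 libraries and above it in 5 of 5 RIS and 6 of 6 RIS+shHMGA1 libraries. In growing replicate 4, in contrast to its group, *NOTCH3* was below *NOTCH1* (1.63 against 1.65 CPM per kilobase) and *HEY1* above *HES1* (3.80 against 1.31), and in RIS replicate 2 *NOTCH3* was above *NOTCH1* (10.1 against 3.49) and *HEY1* below *HES1* (0.784 against 2.48). The other orders given here held in both of these libraries.

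**Figure D1:**
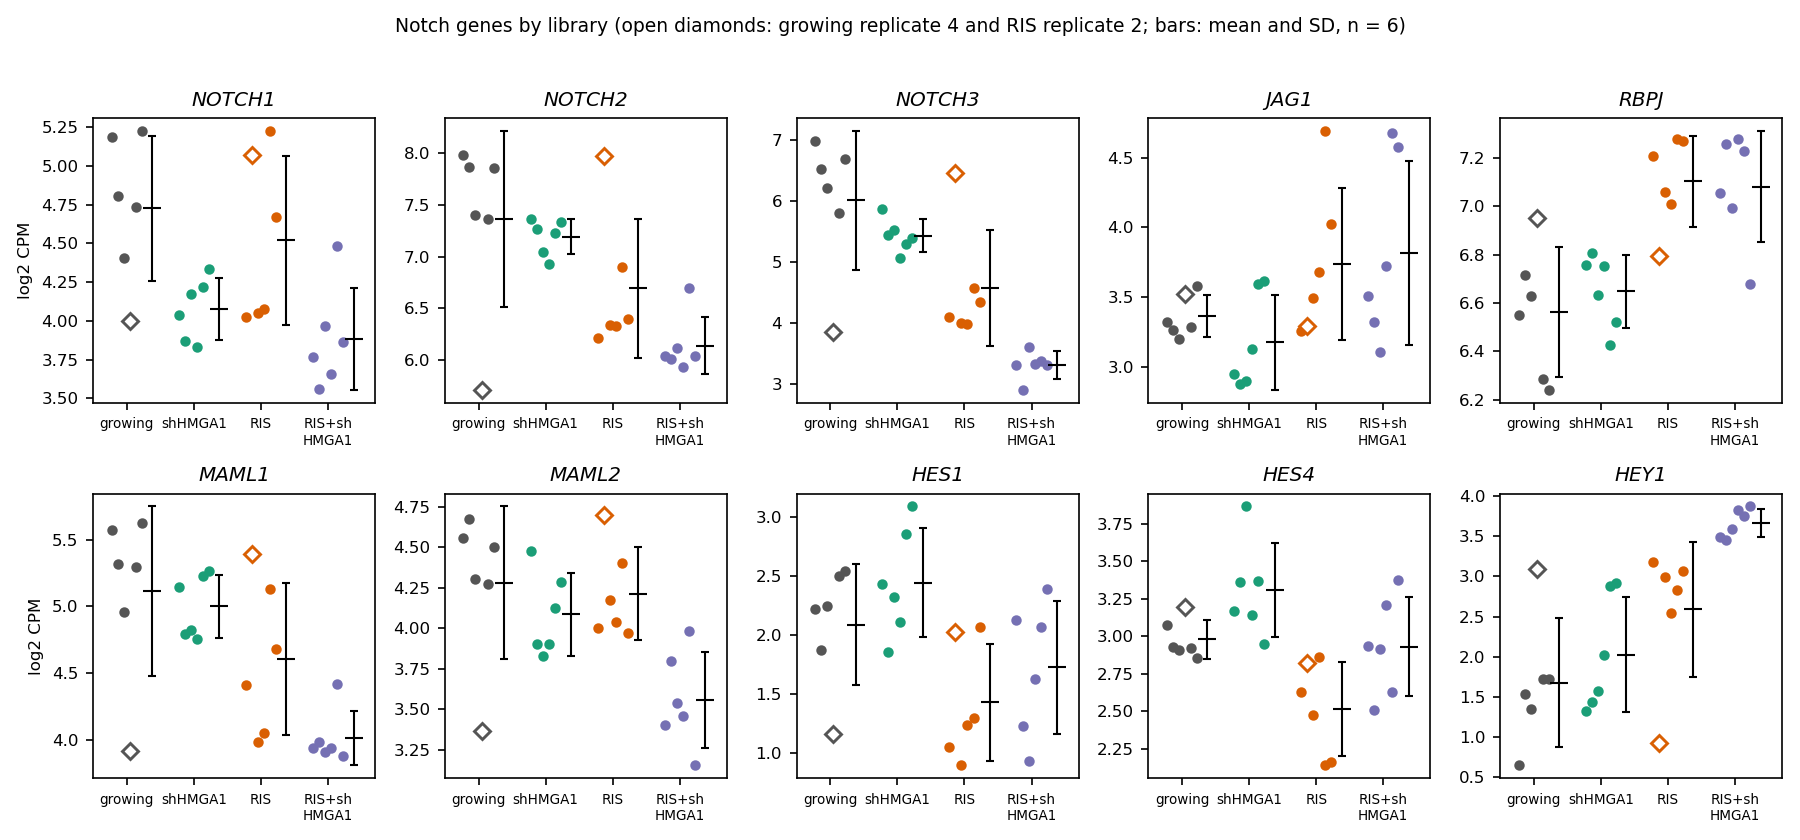
Expression of the 10 NOTCH pathway genes in log2 CPM (vertical axes, each with its own range) in the 4 groups; a point is a library, in replicate order from left to right, open diamonds are growing replicate 4 and RIS replicate 2, and bars give the mean and SD of 6 libraries. For *NOTCH3*, the growing diamond (14.1 CPM) lies below and the RIS diamond (87.9 CPM) above all other points of its group, and *HEY1* in RIS+shHMGA1 lies above every library of the other groups.

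To ask how activation of RAS changed the pathway, the groups with and without 4OHT were compared, first between the hairpin groups, which hold neither departing library. In RIS+shHMGA1 against shHMGA1, *NOTCH2*, *NOTCH3* and *MAML1* were lower and *HEY1* was higher. These 4 of 10 genes were called by edgeR's quasi-likelihood test over all genes (Benjamini-Hochberg adjusted p under 0.01 and a log2 fold change beyond 0.58 in either direction). Over all 13356 genes tested, 39.1% were called in this comparison, 19.6% higher and 19.5% lower, so that 4 of 10 is near the share of all genes. The median log2 fold change was −0.46 over the 10 genes and −0.02 over all genes. How many of all genes had groups without overlap was not counted, here and below.

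*NOTCH3* had the widest range of the 10 genes. It was at 33.0 to 58.3 CPM (median 42.5) in shHMGA1 and at 7.28 to 11.9 CPM (median 9.78) in RIS+shHMGA1. The groups did not overlap, and the lowest shHMGA1 library was well above the highest RIS+shHMGA1 library. It fell with a log2 fold change of −2.15 ± 0.43 (SE, n = 6 per group, adjusted p = 0.000465, edgeR). *NOTCH2*, the most abundant receptor per length, was at 122 to 165 CPM (median 151) in shHMGA1 and at 61.0 to 104 CPM (median 65.8) in RIS+shHMGA1. The groups did not overlap, although RIS+shHMGA1 replicate 5, the highest of its group, stood apart from the other 5 libraries of the group, which reached 69.3 CPM. The log2 fold change of *NOTCH2* was −1.04 ± 0.30 (SE, n = 6 per group, adjusted p = 0.0057, edgeR), and the call was lost without replicate 1, 3, 5 or 6, with adjusted p of 0.0226, 0.0204, 0.0103 and 0.0239 and log2 fold changes of −0.99 to −1.17, whereas it held in the 22 libraries (−1.04, adjusted p = 9.46e-07, edgeR). *NOTCH1*, the receptor whose active domain gives its name to NOTCH-induced senescence, was at 14.04 to 19.99 CPM (median 17.1) in shHMGA1 and at 11.6 to 22.2 CPM (median 13.9) in RIS+shHMGA1. These groups overlapped, and the difference was not past the threshold (log2 fold change −0.18 ± 0.23, adjusted p = 0.508, edgeR).

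*JAG1*, the ligand, was at 7.16 to 12.1 CPM (median 8.05) in shHMGA1 and at 8.43 to 25.4 CPM (median 12.1) in RIS+shHMGA1, and the groups overlapped. Within both hairpin groups replicates 5 and 6 had the highest values, 11.9 and 12.1 CPM in shHMGA1 and 25.4 and 23.7 CPM in RIS+shHMGA1. The same replicate numbers were highest in RIS, at 25.6 and 16.1 CPM. With a log2 fold change of 0.75 ± 0.27, *JAG1* did not pass the adjusted threshold (adjusted p = 0.0201, edgeR).

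The nuclear components did not move together. *RBPJ*, the DNA-binding partner, was at 85.7 to 112 CPM (median 103) in shHMGA1 and at 102 to 155 CPM (median 141) in RIS+shHMGA1, with a log2 fold change of 0.44 ± 0.13 that passed the adjusted p (0.00535, edgeR) but not the limit on size. *MAML1* was at 26.8 to 38.4 CPM (median 31.7) in shHMGA1 and at 14.6 to 21.3 CPM (median 15.2) in RIS+shHMGA1. These groups did not overlap, and 5 of the 6 RIS+shHMGA1 libraries lay within 14.6 to 15.6 CPM, below replicate 5. The log2 fold change of *MAML1* was −0.998 ± 0.244 (SE, adjusted p = 0.00185, edgeR), and the call was lost without replicate 1 (adjusted p = 0.0106) or replicate 6 (adjusted p = 0.0117). *MAML2*, a paralogue of *MAML1*, was at 14.0 to 22.1 CPM in shHMGA1 and at 8.73 to 15.6 CPM in RIS+shHMGA1, and was not called (log2 fold change −0.53 ± 0.19, adjusted p = 0.0187, edgeR).

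The targets differed in direction. *HEY1* was at 2.32 to 7.41 CPM (median 3.34) in shHMGA1 and at 10.8 to 14.5 CPM (median 12.6) in RIS+shHMGA1. The groups did not overlap, and replicates 5 and 6 of shHMGA1, at 7.20 and 7.41 CPM, stood above the other 4 libraries of that group, which reached 3.87 CPM. Its log2 fold change was 1.52 ± 0.37 (SE, n = 6 per group, adjusted p = 0.0019, edgeR), with the call lost without replicate 3 (1.44, adjusted p = 0.0126). *HES1* was at 3.45 to 8.36 CPM (median 5.03) in shHMGA1 and at 1.74 to 5.06 CPM (median 3.47) in RIS+shHMGA1, and the groups overlapped (log2 fold change −0.73 ± 0.29, adjusted p = 0.0324, not called, edgeR). The counts of *HES1* in these groups were 20 to 115 reads in a library. *HES4* was at 7.56 to 14.4 CPM in shHMGA1 and at 5.51 to 10.2 CPM in RIS+shHMGA1 and was not called (−0.39 ± 0.17, adjusted p = 0.0515, edgeR). The stretches shown above for *HES1*, *HES4* and *RBPJ* hold TGGGAA, and none of these genes was among those called here. No window of *HEY1* was read, so that the core cannot be compared between the called target and the others. In RIS against growing with 22 libraries, given below, *HES1* was called lower and *RBPJ* higher.

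In RIS against growing cells, the same question without the hairpin, none of the 10 genes was called with all 24 libraries. The background was 0% of 13356 genes called by edgeR, although 4407 genes had an unadjusted p under 0.05 and DESeq2 called 827. In the 22 libraries without growing replicate 4 and RIS replicate 2, 6 of 10 genes were called, 4 lower and 2 higher, against 39.7% of 13416 genes tested. The receptors *NOTCH2* and *NOTCH3*, the coactivator *MAML1* and the target *HES1* were lower, and *RBPJ* and *HEY1* were higher. The direction of each of the 10 log2 fold changes was the same with 24 and with 22 libraries. Both libraries were left out because their expression lay nearest a group of the opposite 4OHT state. The separation and the p of the 22 libraries therefore partly reflect that choice, here and below. With growing replicate 4 alone left out 5 of 10 genes were called, against 25.4% of all genes, and with RIS replicate 2 alone left out 3 were called, against 19.2% of all genes.

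*NOTCH3* was at 55.4 to 126 CPM in the 5 growing libraries and at 14.1 CPM in growing replicate 4, while the RIS libraries were at 15.6 to 23.5 CPM and RIS replicate 2 at 87.9 CPM. In the 22 libraries the groups did not overlap, and each of the departing libraries lay in or near the range of the opposite group. *NOTCH3* had a log2 fold change of −1.37 ± 0.41 with 24 libraries (adjusted p = 0.0316, edgeR) and −2.29 ± 0.19 with 22 (adjusted p = 2.11e-10, edgeR). *NOTCH2* was at 164 to 253 CPM in the 5 growing libraries and 52.2 CPM in growing replicate 4, against 74.2 to 119 CPM in the 5 RIS libraries and 251.1 CPM in RIS replicate 2. The log2 fold change of *NOTCH2* was −0.68 ± 0.30 with 24 libraries (adjusted p = 0.118, edgeR) and −1.26 ± 0.16 with 22 (adjusted p = 2.5e-07, edgeR). *NOTCH1* was at 20.99 to 37.2 CPM in the 5 growing libraries and at 16.1 to 37.2 CPM in the 5 RIS libraries, where replicates 1, 3 and 4 lay at 16.1 to 16.7 CPM and replicates 5 and 6 at 37.2 and 25.3 CPM. Its groups overlapped and it was not called with either set of libraries (−0.18 ± 0.22 with 24 and −0.41 ± 0.21 with 22, adjusted p = 0.579 and 0.0922, edgeR).

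*HEY1* was at 1.39 to 3.13 CPM in the 5 growing libraries and at 8.36 CPM in growing replicate 4, and at 5.67 to 8.86 CPM in the 5 RIS libraries and 1.72 CPM in RIS replicate 2. The 22 libraries did not overlap between the groups. For *HEY1* the log2 fold change was 0.95 ± 0.38 with 24 libraries (adjusted p = 0.0897, edgeR) and 1.60 ± 0.28 with 22 (adjusted p = 3.65e-05, edgeR). *HES1* was at 3.48 to 5.66 CPM in the 5 growing libraries and at 1.68 to 4.02 CPM in the 5 RIS libraries, which overlapped through RIS replicate 6. Growing replicate 4 was at 2.06 CPM and RIS replicate 2 at 3.90 CPM. The log2 fold change of *HES1* was −0.70 ± 0.29 with 24 libraries (adjusted p = 0.102, edgeR) and −0.96 ± 0.28 with 22 (adjusted p = 0.00514, edgeR). *HES4* was at 7.05 to 8.25 CPM in the 5 growing libraries and at 4.23 to 7.09 CPM in the 5 RIS libraries, and was not called with either set (−0.46 ± 0.17 and −0.49 ± 0.18).

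*RBPJ* was at 75.5 to 105 CPM in the 5 growing libraries and at 129 to 155 CPM in the 5 RIS libraries, without overlap. Growing replicate 4 was at 124 CPM and RIS replicate 2 at 111 CPM, and with these libraries the groups overlapped. The log2 fold change of *RBPJ* was 0.53 ± 0.13 with 24 libraries (adjusted p = 0.0166, edgeR) and 0.67 ± 0.12 with 22 (adjusted p = 3.6e-05, edgeR). *MAML1* was at 30.9 to 49.3 CPM in the 5 growing and 15.6 to 34.8 CPM in the 5 RIS libraries, which overlapped through RIS replicate 5. Growing replicate 4 was at 14.9 CPM and RIS replicate 2 at 41.8 CPM. The log2 fold change of *MAML1* was −0.51 ± 0.24 with 24 libraries (adjusted p = 0.139, edgeR) and −0.86 ± 0.18 with 22 (adjusted p = 0.000235, edgeR). *MAML2* and *JAG1* were not called with either set of libraries. Their log2 fold changes were −0.10 ± 0.19 and 0.47 ± 0.27 with 24 libraries and −0.35 ± 0.15 and 0.60 ± 0.28 with 22.

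**Figure D2:**
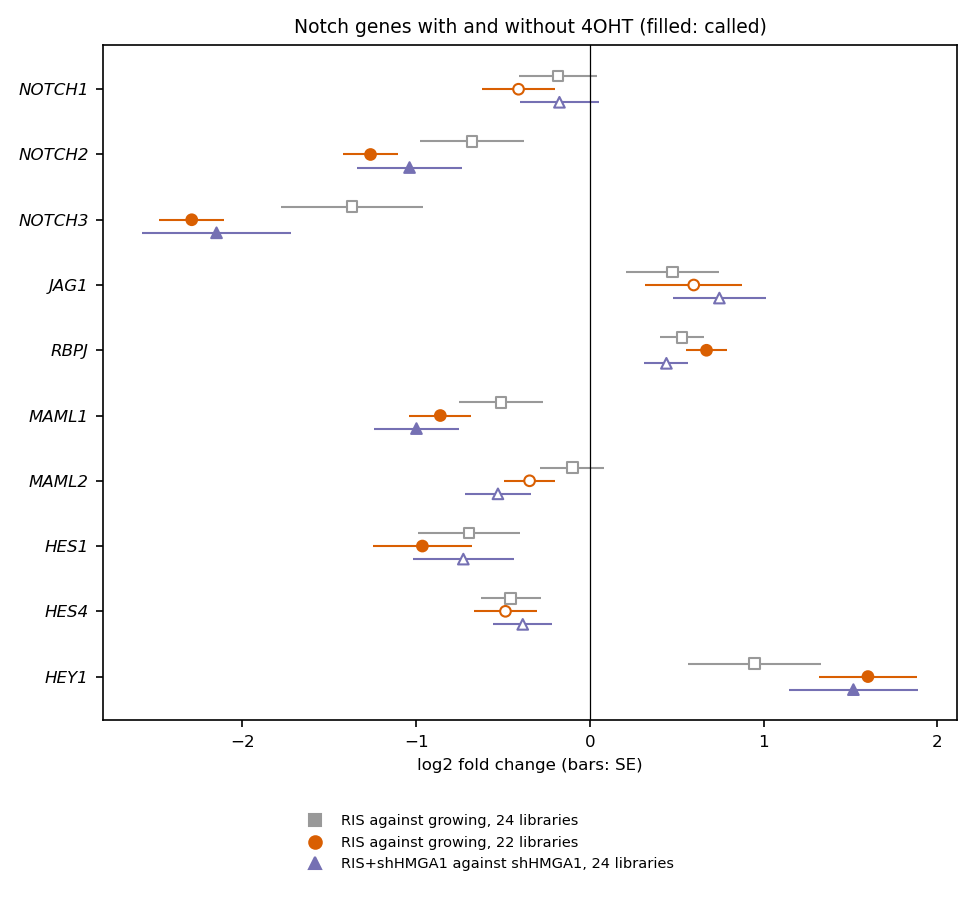
Log2 fold change with 4OHT (horizontal axis, bars are SE) of the 10 genes for RIS against growing with 24 libraries (squares) and with 22 libraries (circles), and for RIS+shHMGA1 against shHMGA1 (triangles); filled points were called. *NOTCH3* lies furthest to the left in each set (−1.37, −2.29 and −2.15) and *HEY1* furthest to the right (0.95, 1.60 and 1.52).

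The 2 comparisons with 4OHT share no library, and the difference between them was tested as the interaction of hairpin and 4OHT. No gene of the 10 was called, and the background was 0% of all genes (edgeR), with 1371 genes at an unadjusted p under 0.05 and 4 called by DESeq2. The smallest unadjusted p among the 10 genes was that of *MAML2* (0.118, adjusted p = 0.432, edgeR), whose interaction was −0.43 ± 0.26 on the log2 scale with 24 libraries and −0.18 ± 0.20 with 22. Some signs turned with the departing libraries. The interaction of *NOTCH3* was −0.78 ± 0.58 with 24 libraries and 0.14 ± 0.25 with 22, that of *NOTCH2* was −0.36 ± 0.42 and 0.23 ± 0.21, and that of *HEY1* was 0.57 ± 0.53 and −0.10 ± 0.36. The SE of these values is wide enough that a modest effect of the hairpin on the 4OHT response could not be detected.

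RIS+shHMGA1 against growing cells, the comparison of both changes together, called 6 of 10 genes against 45.9% of all genes with 24 libraries. *NOTCH3* (−2.98 ± 0.44), *NOTCH2* (−1.36 ± 0.30), *MAML1* (−1.20 ± 0.24), *NOTCH1* (−0.88 ± 0.23) and *MAML2* (−0.76 ± 0.19) were lower and *HEY1* (1.90 ± 0.38) was higher, with adjusted p of 0.00224 or lower (edgeR). The call of *NOTCH1* was lost without replicate 1, 2 or 6 (adjusted p = 0.0189, 0.0107 and 0.0185, edgeR), with log2 fold changes of −0.75, −0.81 and −0.76, and that of *MAML2* without replicate 1 or 6 (adjusted p = 0.0131 and 0.0133, edgeR), with −0.68 and −0.66. In the 22 libraries 7 of 10 genes were called, against 56.9% of all genes. The log2 fold changes there were −3.20 ± 0.18 for *NOTCH3*, −1.55 ± 0.15 for *NOTCH2*, −1.36 ± 0.17 for *MAML1*, −0.99 ± 0.20 for *NOTCH1*, −0.90 ± 0.14 for *MAML2*, 2.35 ± 0.27 for *HEY1* and 0.60 ± 0.11 for *RBPJ*, the gene added.

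To ask what the hairpin did to the pathway, the hairpin and vector groups were compared without and with 4OHT. In shHMGA1 against growing cells none of the 10 genes was called by edgeR or by DESeq2 with 24 libraries. Over all genes edgeR called 0.27% and DESeq2 98 of 13741. *NOTCH1*, *NOTCH3* and *HES4* had an unadjusted p under 0.05 (edgeR). For *NOTCH3*, the 5 growing libraries at 55.4 to 126 CPM and the shHMGA1 libraries at 33.0 to 58.3 CPM overlapped slightly. Its log2 fold change was −0.83 ± 0.40 with 24 libraries (adjusted p = 0.379, edgeR) and −1.05 ± 0.17 with 22 (adjusted p = 0.000358, edgeR), which was the only call among the 10 genes there, against 2.59% of all genes. *NOTCH1* was at 20.99 to 37.2 CPM in the 5 growing libraries and at 14.04 to 19.99 CPM in shHMGA1, without overlap, and growing replicate 4 was at 15.8 CPM. Its log2 fold change was −0.70 ± 0.23 with 24 libraries (adjusted p = 0.164, edgeR) and −0.82 ± 0.20 with 22 (adjusted p = 0.011, edgeR). With the replicate number as a block in the 22 libraries *NOTCH1* (−0.78 ± 0.17, adjusted p = 0.00501, edgeR) was called as well as *NOTCH3*, against 484 of 13416 genes.

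In RIS+shHMGA1 against RIS cells none of the 10 genes was called by edgeR with 24 libraries, against 2.55% of all genes, although all but *JAG1*, *RBPJ* and *HES1* had an unadjusted p under 0.05. DESeq2 on the same libraries called *NOTCH3* (−1.60, adjusted p = 0.00184) and *MAML2* (−0.65, adjusted p = 0.00667), against 1569 of 12960 genes. *NOTCH3* was lower in each of the 6 RIS+shHMGA1 libraries (7.28 to 11.9 CPM) than in each of the 6 RIS libraries (15.6 to 87.9 CPM), and *HEY1* was higher in each (10.8 to 14.5 CPM against 1.72 to 8.86 CPM). The share of all genes that separated in this way was not counted. In this comparison 6647 of 13356 genes had an unadjusted p under 0.05 (edgeR). The log2 fold change of *NOTCH3* was −1.61 ± 0.42 with 24 libraries (adjusted p = 0.0135, edgeR) and −0.91 ± 0.18 with 22 (adjusted p = 0.00162, edgeR), the only call in the 22 libraries against 12.5% of all genes. *HEY1* stood at 0.95 ± 0.37 with 24 libraries (adjusted p = 0.048, edgeR) and 0.75 ± 0.25 with 22 (adjusted p = 0.021, edgeR). It was called in the 22 libraries with the replicate number as a block (0.78 ± 0.22, adjusted p = 0.00764, edgeR), against 1938 of 13416 genes. *MAML2* passed the adjusted p but not the limit on size in the 22 libraries (−0.55 ± 0.14, adjusted p = 0.00617, edgeR), after −0.66 ± 0.19 with 24 (adjusted p = 0.0175, edgeR). *RBPJ* and *JAG1* differed by little between these groups, at −0.07 ± 0.11 and 0.03 ± 0.27 in the 22 libraries.

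**Figure D3:**
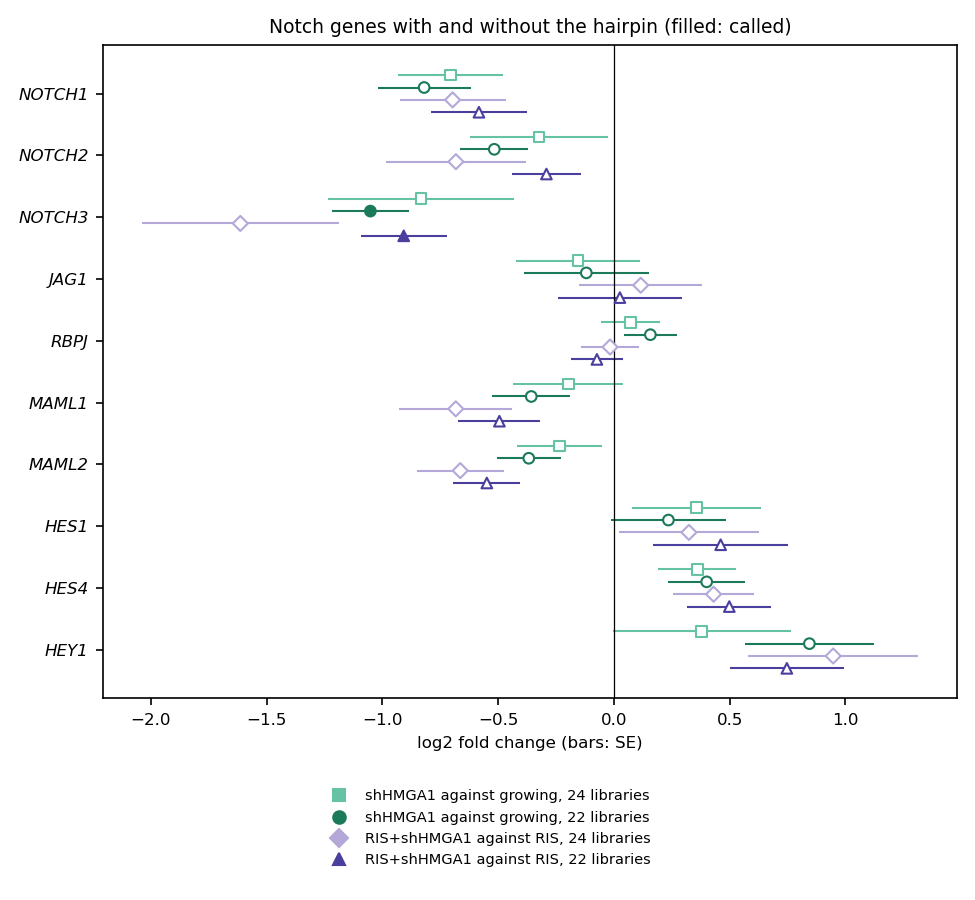
Log2 fold change with the hairpin (horizontal axis, bars are SE) of the 10 genes, in shHMGA1 against growing and in RIS+shHMGA1 against RIS, each with 24 and with 22 libraries; filled points were called. The only filled points are those of *NOTCH3* with 22 libraries, at −1.05 and −0.91.

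The group means without the departing libraries gave the order in which the 3 genes of widest range moved. *NOTCH3* and *NOTCH2* had their highest mean in growing cells, followed by shHMGA1, RIS and RIS+shHMGA1, and *HEY1* had the reverse order. The range of the 4 group means was 3.14 for *NOTCH3*, 2.27 for *HEY1* and 1.55 for *NOTCH2* in log2 CPM, against 0.65 to 1.34 for the other 7 genes. The genes whose 4 centred group means lay closest to those of *NOTCH3* were *ADAMTS2*, a procollagen protease (root mean square difference 0.0359 in log2 CPM), and *TIMP3*, an inhibitor of matrix metalloproteinases (0.0725). For *HEY1* they were *MOSPD1* (0.0226) and *PPA2*, a mitochondrial pyrophosphatase (0.0245), and for *NOTCH2* they were *PYCR1*, an enzyme of proline synthesis (0.0187), and *VANGL1*, a planar cell polarity protein (0.0249). These are likenesses over 4 group means from the same 22 libraries and carry no test.

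Within a library, the ratio of counts of 2 genes depends neither on library size nor, between groups, on gene length. The pairs were NOTCH2 to NOTCH1, MAML2 to MAML1 and HEY1 to HES1, each tested in 4 comparisons with an exact two-sided permutation test and Benjamini-Hochberg adjustment over 12 tests. The pairs were chosen with earlier results of these data known, and the adjustment over 12 tests does not cover that choice. With 6 against 6 libraries the smallest p that this test allows is 0.0022. The log2 ratio of *HEY1* to *HES1* was −1.16 to 0.02 in shHMGA1 and 1.39 to 2.75 in RIS+shHMGA1. The groups did not overlap, and *HES1* had the higher count in 5 of 6 shHMGA1 libraries whereas *HEY1* had it in 6 of 6 RIS+shHMGA1 libraries. The means differed by 2.42 (1.98 ± 0.53 against −0.44 ± 0.45, SD, n = 6, exact permutation p = 0.0022, adjusted 0.013). In RIS against growing, growing replicate 4 was at 1.99 against −1.68 to −0.36 in the other growing libraries, and RIS replicate 2 was at −1.16 against 1.02 to 2.19 in the other RIS libraries. The difference was 1.64 with all 12 libraries (exact permutation p = 0.067, adjusted 0.13) and 2.59 without both (5 against 5, exact permutation p = 0.0079, the smallest that this number allows, adjusted 0.019). The p without both libraries does not account for their having been left out by their expression.

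The log2 ratio of *NOTCH2* to *NOTCH1* was 2.88 to 3.40 in shHMGA1 and 2.16 to 2.46 in RIS+shHMGA1, without overlap. The difference of RIS+shHMGA1 from shHMGA1 was −0.86 on the log2 scale (exact permutation p = 0.0022, adjusted 0.013, n = 6 per group). In RIS against growing the difference was −0.47 with all 12 libraries (exact permutation p = 0.12, adjusted 0.2) and −0.80 without the departing libraries (exact permutation p = 0.0079, adjusted 0.019). The log2 ratio of *MAML2* to *MAML1* was −1.10 to −0.67 in shHMGA1 and −0.74 to −0.18 in RIS+shHMGA1, and these groups overlapped. The difference was 0.46 (exact permutation p = 0.0043, adjusted 0.017, n = 6 per group), with adjusted p of 0.063 without replicate 2, 3, 4 or 5. None of the 3 ratios passed in either hairpin comparison. The closest was *NOTCH2* to *NOTCH1* in shHMGA1 against growing, which was higher by 0.48 with all 12 libraries (exact permutation p = 0.022, adjusted 0.065) and by 0.30 without growing replicate 4, whose ratio was 1.72 against 2.63 to 3.06 in the other growing libraries (exact permutation p = 0.045, adjusted 0.082).

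**Figure D4:**
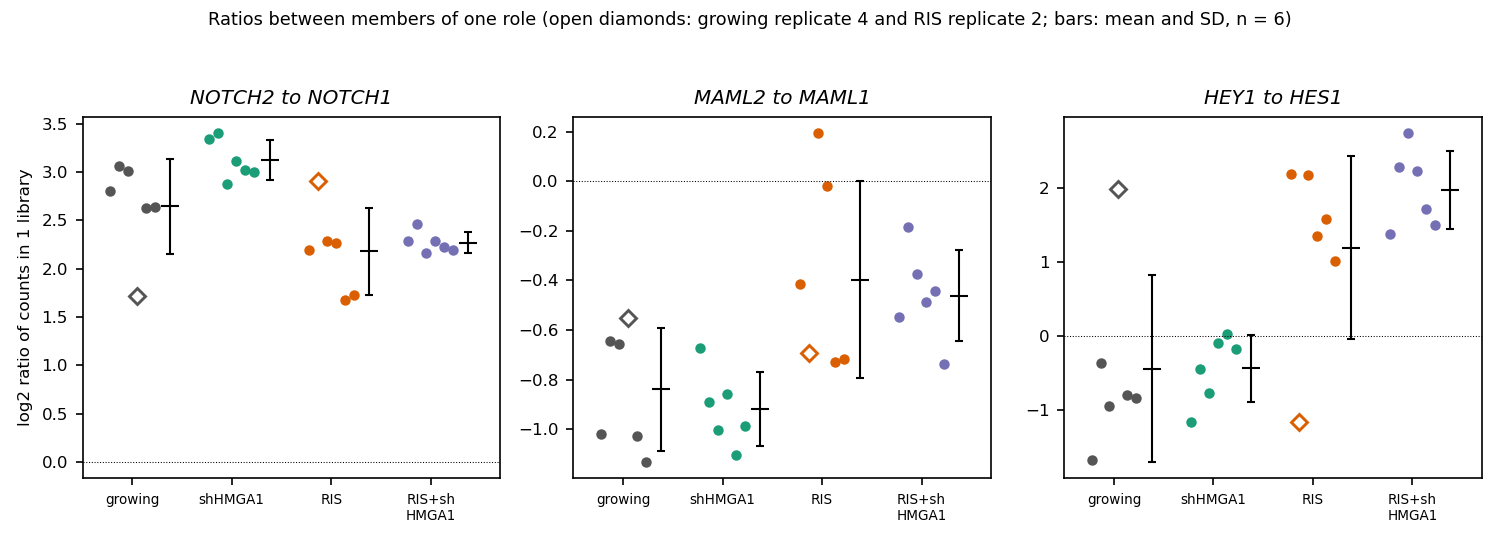
Log2 ratio of counts (vertical axes) of *NOTCH2* to *NOTCH1*, *MAML2* to *MAML1* and *HEY1* to *HES1* in each library by group; open diamonds are growing replicate 4 and RIS replicate 2, and bars give the mean and SD of 6 libraries. In the *HEY1* to *HES1* panel the RIS+shHMGA1 libraries lie at 1.39 to 2.75, above all shHMGA1 libraries (−1.16 to 0.02), and each diamond lies among the points of the opposite 4OHT state.

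The rest of the pathway was read from a list of 64 further genes, of which 63 had counts and 47 passed the filter. In RIS+shHMGA1 against shHMGA1, 16 of these 47 were called, 3 higher and 13 lower, and 31 were not. The share called higher was below, and that called lower above, the 19.6% and 19.5% of all genes, and the median log2 fold change was −0.23 against −0.02 over all genes. In the fit of 22 libraries, 20 of the 47 were called in this comparison, 4 higher and 16 lower, against 5959 of all 13416 genes. The calls of single genes in the next paragraphs are those of the fit with 24 libraries. In RIS against growing with 22 libraries 19 of 47 were called, 5 higher and 14 lower, against 39.7% of all genes, 19.2% higher and 20.5% lower, and with 24 libraries none was called by edgeR.

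Both other ligands that passed the filter were called, in opposite directions. *DLL4*, a Delta-family ligand best known from blood vessels, was at 57.1 to 86.9 CPM (median 74.6) in shHMGA1 and at 8.17 to 24.5 CPM (median 12.9) in RIS+shHMGA1, without overlap. Its fold change on the log2 scale was −2.31 ± 0.44 (adjusted p = 0.000359, edgeR). In the 5 growing libraries *DLL4* was at 34.2 to 70.3 CPM and in the 5 RIS libraries at 9.16 to 23.3 CPM, with growing replicate 4 at 10.03 and RIS replicate 2 at 62.5 CPM. Per kilobase, *DLL4* was above *JAG1* in each of the 22 libraries, with medians of 21.8 against 1.36 in shHMGA1 and 3.75 against 2.04 CPM per kilobase in RIS+shHMGA1. The endothelial markers summed to at most 2.01 CPM in any library. *DLL3*, a divergent ligand known to act inside the cell, was higher (1.85 ± 0.42, adjusted p = 0.00117, edgeR) at low counts of 3 to 35 reads in these groups.

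Of the 4 glycosylation enzymes tested, 2 were lower, *POFUT1* and *POGLUT1*, which add O-fucose and O-glucose to the receptor (−0.95 ± 0.19 and −0.63 ± 0.12). Of the 9 proteases and protease subunits, *ADAM10* (−0.99 ± 0.23), the sheddase that cleaves the ligand-bound receptor, and *FURIN* (−0.89 ± 0.21), which cleaves the receptor during its maturation, were lower. *PSENEN*, a subunit of gamma-secretase, was higher (0.86 ± 0.22), and the other 6 were not called. Among 11 genes of ligand and receptor traffic, *NUMB*, an adaptor that antagonises NOTCH, was higher (0.69 ± 0.12) while its paralogue *NUMBL* (−1.15 ± 0.23) and the ubiquitin ligase *DTX3L* (−1.12 ± 0.21) were lower. *NEURL1B*, a ubiquitin ligase that acts on ligands, was called lower as well. It was at 4.29 to 7.83 CPM in shHMGA1 and at 0 to 0.201 CPM in RIS+shHMGA1, where no library had more than 2 reads, so that the size of its fold change depends on the prior count of the fit.

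Of the 6 other coactivators tested, the acetyltransferase *KAT2B* was lower (−1.25 ± 0.25) and 5 were not called. Of the 12 corepressors tested, *TLE4* (−2.15 ± 0.43), a Groucho-family corepressor that binds HES proteins, *BEND6* (−1.08 ± 0.16), which interacts with RBPJ, and *NCOR1* (−1.03 ± 0.25) were lower, and none was higher. *TLE4* was at 32.1 to 40.8 CPM in shHMGA1 and 5.82 to 10.2 CPM in RIS+shHMGA1. Of the other HES genes tested, *HES6* was lower (−1.20 ± 0.25) at low counts. The adjusted p of the 16 genes named in these 3 paragraphs was 0.00273 or lower (edgeR).

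**Figure D5:**
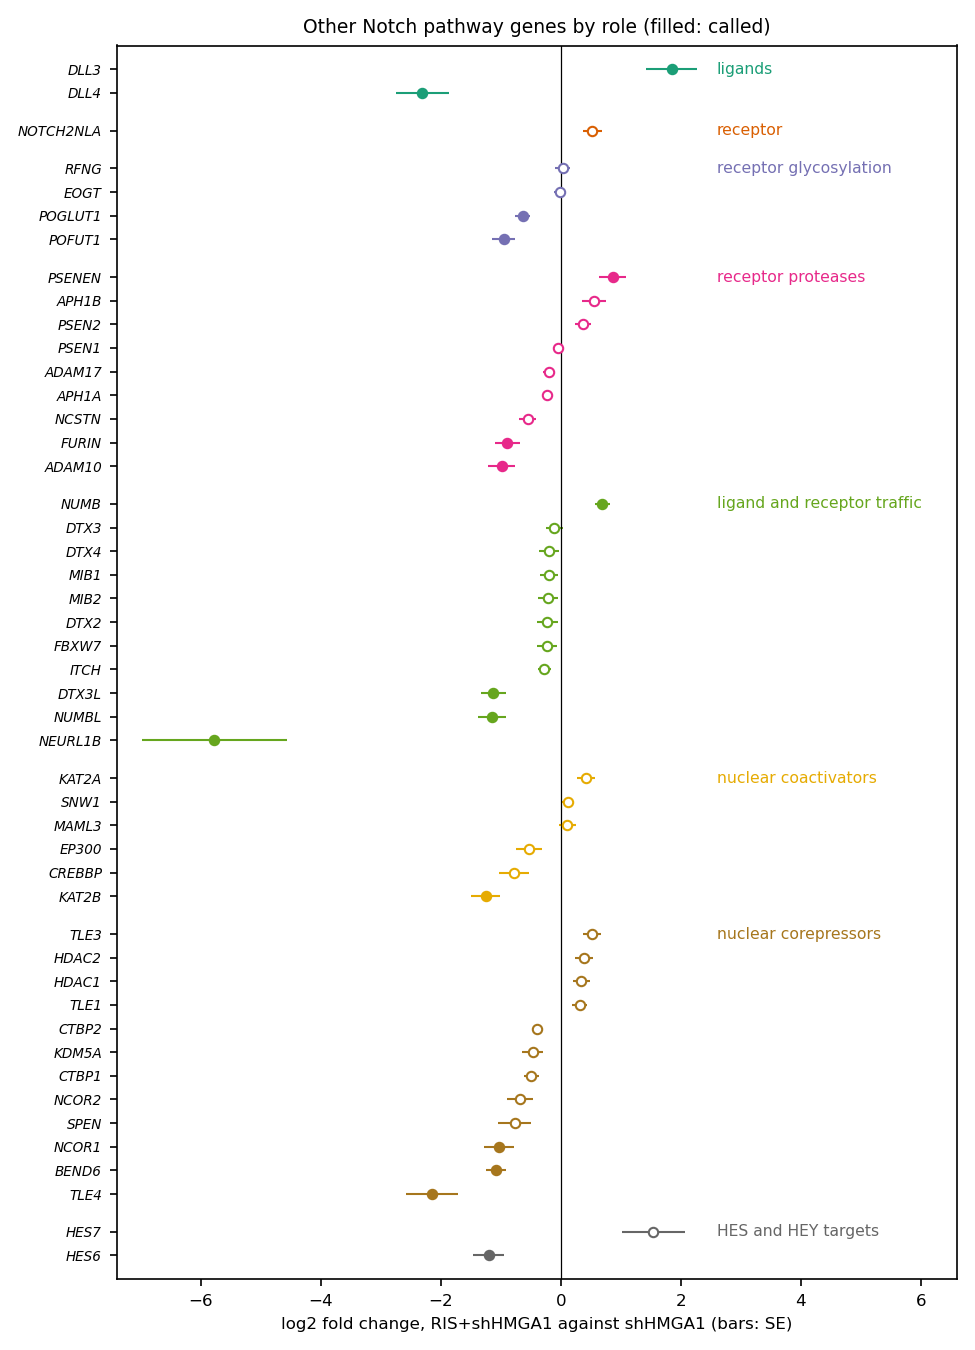
Log2 fold change of the 47 other NOTCH pathway genes in RIS+shHMGA1 against shHMGA1 (horizontal axis, bars are SE, 6 libraries per group), grouped by role; filled points were called. The 13 filled points to the left of 0 include *DLL4* at −2.31 and *TLE4* at −2.15, the 3 to the right are *DLL3*, *PSENEN* and *NUMB*, and the value of *NEURL1B* depends on the prior count because RIS+shHMGA1 libraries held at most 2 reads.

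The remaining 16 genes were under the filter. *NOTCH4* and *HES3* had 0 reads in all 24 libraries, and *HEY2* had 1 read in 1 library. *HEYL*, a target that is known to respond to active NOTCH1, had at most 19 reads and 0.996 CPM in a library, *HES5* at most 5 reads, and *NRARP*, a feedback inhibitor, at most 5 reads. The ligands *JAG2*, *DLL1*, *DLK1* and *DLK2* reached at most 1.95 CPM, and the fringe enzymes *LFNG* and *MFNG* at most 1.31 CPM. The others were *NEURL1*, *DTX1*, *TLE2* and *HES2*, at or below 0.90 CPM. At this depth a difference between groups in these genes could not be measured. The promoter windows of *HES5* and *HEYL* each held the core TGGGAA at 2 places, beginning 80 and 224 bases before the start of *HES5* and 99 and 178 bases before that of *HEYL*, and those of *HEY2*, *HES3*, *LFNG* and *NEURL1* held it at other distances.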

How the data were processed

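The authors mapped reads to hg19 with STAR 2.5.0b, removed adapters and reads of mapping quality under 20 (Cutadapt 1.10.0), and counted reads per gene with Rsubread. They deposited raw counts per Entrez identifier, without normalisation, and the gene annotation and strand setting are not given in the sources used here. Symbols came from a RefSeq table (23696 of 25702 identifiers). Group and replicate were taken from the sample labels, which call the replicates biological. The 10 genes, the other lists, the ratios and the departing libraries were chosen with earlier results of these data known.

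Counts were filtered with filterByExpr by group, normalised by TMM and fitted in edgeR 4.0.16 (R 4.3.3, limma 3.58.1) with a quasi-likelihood test over all 24 libraries and group means. Calls needed a log2 fold change beyond 0.58 in size together with a Benjamini-Hochberg adjusted p below 0.01, as in the study's methods. The script was tested on simulated counts. The SE of an edgeR log2 fold change was derived from the test, as its size divided by the square root of the quasi-likelihood F statistic. CPM used TMM library sizes, log2 CPM a prior count of 2, and ratios a pseudocount of 0.5. Genes named were the 10, all called genes of the longer list in RIS+shHMGA1 against shHMGA1, its members under the filter, and for the 3 genes of widest range the 2 genes of most similar group means. No pair of libraries in a group agreed within sampling noise. Same-numbered libraries deviated together in every pair (correlation of deviations over 0.1 in 5 of 5 pairs) for both hairpin comparisons of the 22 libraries, with lowest correlations of 0.228 and 0.269, but not with all 24 libraries nor in the comparisons with 4OHT. The alternatives were DESeq2 1.42.0, RLE scaling, other filters, a replicate block, sample weights, only the libraries compared, an adjusted p under 0.05, and leaving out libraries. Leaving out growing replicate 4 or RIS replicate 2 alone was added after seeing the data.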

Additional observations from a re-analysis of the deposited data

Results flagged for a closer look

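Over the 10 genes and 3 ratios in the 4 groups, 52 sets of 6 libraries were screened for a highest or lowest library whose gap to its neighbour exceeded 0.625 of the group's range, and 9 were found, where chance gives about 2.6. Growing replicate 4 stood apart in 4 of them, with gaps of 0.725 of the range for *NOTCH2* and 0.691 for *MAML2* in log2 CPM, 0.678 for the ratio of *NOTCH2* to *NOTCH1* and 0.64 for the ratio of *HEY1* to *HES1*. RIS replicate 2 stood apart in 3, with 0.763 for *NOTCH3*, 0.721 for *HEY1* and 0.651 for the ratio of *HEY1* to *HES1*. RIS+shHMGA1 replicate 5 was the highest of its group for *NOTCH2* (0.758) and *MAML1* (0.815). The genes and ratios share libraries, so that these are not independent. None of the 10 genes passed the interaction test of hairpin and 4OHT.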

How the results depend on the processing

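With 24 libraries, the number of the 10 genes called in RIS against growing went from 0 to 6 without both departing libraries, with or without the replicate block, to 6 with sample weights and to 1 at an adjusted p under 0.05, and it was 0 to 5 when libraries were left out in turn. Over all genes there, 5331 of 13416 were called without both departing libraries and 5246 with the block as well. Sample weights called 6317 of 13356 genes, and an adjusted p under 0.05 called 1537. In RIS+shHMGA1 against shHMGA1 the number of the 10 genes called was 4, with 6 at an adjusted p under 0.05, 6 with the replicate block, 5 with sample weights and 2 to 4 when a replicate was left out. Of all 13356 genes, 6081 were called at an adjusted p under 0.05, 5667 with the block and 6573 with sample weights. In shHMGA1 against growing the number of the 10 genes called went from 0 to 2 with sample weights, to 1 without the departing libraries and to 2 with these left out and a replicate block. Over all genes the calls were 845 of 13356 with sample weights. They were 348 of 13416 without the departing libraries and 484 with the block as well. In RIS+shHMGA1 against RIS the number of the 10 genes called went from 0 to 2 with DESeq2, 1 with the replicate block, 5 at an adjusted p under 0.05, 2 with sample weights, 1 without the departing libraries, 2 with these left out and the block, and 0 to 3 with libraries left out in turn. Over all genes DESeq2 called 1569 of 12960. Of 13356 genes, 1637 were called with the block, 2898 at an adjusted p under 0.05 and 1856 with sample weights. Without the departing libraries 1677 of 13416 were called, and 1938 with the block as well. In RIS+shHMGA1 against growing the number of the 10 genes called was 4 to 7, and for the interaction 0, under all alternatives run. Over all genes, the calls ranged from 0 to 6317 in RIS against growing (main 0), 3037 to 6573 in RIS+shHMGA1 against shHMGA1 (5220), 3058 to 8012 in RIS+shHMGA1 against growing (6137), 5 to 845 in shHMGA1 against growing (36), 14 to 2898 in RIS+shHMGA1 against RIS (341) and 0 to 7 for the interaction (0). The causes of these shifts were not tested. With the replicate block, *JAG1* (0.68, adjusted p = 0.00192, edgeR) and *HES1* (−0.74, adjusted p = 0.00894, edgeR) were also called in RIS+shHMGA1 against shHMGA1. Deviations of same-numbered libraries correlated there at −0.0233 to 0.326, over 0.1 in 5 of 6 pairs. The labels do not say what same-numbered libraries share.

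Of 1070 log2 fold changes and interactions under the alternatives, 36 reversed, none of them called. *NOTCH1* in RIS against growing was −0.359 to 0.0128 with a library or replicate left out, *HES4* in RIS+shHMGA1 against growing was 0.00324 with RLE scaling, 6.64e-05 with sample weights, 0.0127 without both departing libraries and −0.157 to 0.0399 with a library or replicate left out, *RBPJ* in RIS+shHMGA1 against RIS was 0.00308 with RLE, 0.00752 with sample weights and −0.108 to 0.0878 with a replicate left out, and *JAG1* there was −0.0138 to 0.181 with a replicate left out. Among the interactions, those of *NOTCH2*, *NOTCH3* and *HES1* were 0.225, 0.144 and 0.226 without both departing libraries, 0.182, 0.0963 and 0.321 with these left out and the replicate block, and 0.224, 0.138 and 0.28 with sample weights, which also gave 0.0263 for *MAML1* and −0.011 for *HES4*, and that of *HEY1* was −0.0973 without both departing libraries and −0.0196 with the block as well. With a library or replicate left out, the interaction was −0.181 to 0.143 for *NOTCH1*, −0.528 to 0.0327 for *NOTCH2*, −0.176 to 0.0501 for *RBPJ*, −0.224 to 0.162 for *HES1* and −0.145 to 0.232 for *HES4*. The ratio of *NOTCH2* to *NOTCH1* passed the threshold in RIS against growing without the departing libraries (−0.80), as did that of *HEY1* to *HES1* (2.59). Those libraries were left out by their expression, which these tests do not account for. As the replicate block of the ratios, an exact sign-flip test within 6 same-numbered pairs cannot give a p below 0.031, so that the 3 ratios of RIS+shHMGA1 against shHMGA1, each at that p (−0.86, 0.46 and 2.42, adjusted p = 0.12), had no chance to pass. With a replicate left out, the differences were 0.41 to 0.52 for *MAML2* to *MAML1* in RIS+shHMGA1 against shHMGA1, −0.18 to 0.0351 for the same ratio and −0.00169 to 0.20 for *NOTCH2* to *NOTCH1* in RIS+shHMGA1 against RIS, and −0.16 to 0.42 for *HEY1* to *HES1* in shHMGA1 against growing.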

Other observations

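Replicates 5 and 6 held the highest *JAG1* values of the shHMGA1, RIS and RIS+shHMGA1 groups, and in shHMGA1 also the highest *HEY1* (7.20 and 7.41 CPM) and *HES1* (7.07 and 8.36 CPM) values. In growing cells their *HES1* values (5.48 and 5.66 CPM) were the highest of the group and their *RBPJ* values (77.9 and 75.5 CPM) the lowest. *DLL4* and *NEURL1B* went the other way in the cells without 4OHT, apart from growing replicate 4, the lowest of its group (10.03 and 0 CPM). In shHMGA1 *DLL4* was at 57.1 and 67.9 CPM in replicates 5 and 6 against 74.5 to 86.9 CPM in the others, and *NEURL1B* at 4.43 and 4.29 CPM against 6.58 to 7.83 CPM. With 4OHT *DLL4* went the same way as *JAG1*. Replicates 5 and 6 were at 18.5 and 24.5 CPM in RIS+shHMGA1, against 8.17 to 13.0 CPM in the others. In RIS they were at 20.3 and 23.3 CPM, against 9.16 to 9.62 CPM in replicates 1, 3 and 4 and 62.5 CPM in replicate 2. The labels give no batch, date or culture that these replicate numbers share, and this pattern was noticed after the values were seen and was not tested.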
